A study of Mus musculus with 16 samples.

Results

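The acid-sensing ion channel family of the mouse consists of *Asic1*, *Asic2*, *Asic3*, *Asic4* and *Asic5*, and its 5 genes were taken by symbol and matched to their Ensembl identifiers among the 55401 genes of the deposited tables. Whole hypothalamus was compared between ASIC1a-/- and WT C57BL/6 mice, all male and 3 months old. Tissue was taken at Zeitgeber time (ZT, hours after lights on) 13 or 1 of a light-dark cycle. Each of the 4 groups (ASIC1a-/- at ZT13, WT at ZT13, ASIC1a-/- at ZT1, WT at ZT1) held 4 libraries, each from another animal, so 16 libraries in all. Both genotypes were bred from heterozygous parents, and the deletion was global, present in every tissue and throughout development. Which exons the deleted allele lacks is not given in the sources used here. The question put to the family was how far *Asic1* was altered in ASIC1a-/- hypothalamus and whether the levels of the other members differed along with it.

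ASICs are sodium-conducting channels that open when the extracellular pH falls. They belong to the degenerin and epithelial sodium channel superfamily, and each channel is a trimer of equal or different subunits, so that the mixture of subunits sets the pH sensitivity and the kinetics. *Asic1* and *Asic2* each encode a pair of subunits through alternative first exons. ASIC1a is the principal proton sensor of central neurons and as a homomer also lets calcium through, whereas ASIC1b is best known from peripheral sensory neurons. ASIC2a forms channels that need strong acidification, and ASIC2b is not gated by protons alone and modifies the channels it joins. ASIC3 is typical of sensory neurons that detect muscle and skin acidosis, ASIC4 does not form a proton-gated channel alone, and ASIC5 is known as a bile acid-sensitive channel.

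The pairs of isoforms are shown first, because the values of a gene table add reads from both. The first 60 coding bases of each isoform, with the start codon in capitals, come from the GENCODE M21 transcripts on GRCm38. They lie at chr15:99671800-99671859 (+ strand) for ASIC1a, at chr15:99692371-99692430 (+) for ASIC1b, at chr11:81968125-81968184 (- strand) for ASIC2a and at chr11:81152406-81152465 (-) for ASIC2b.
ASIC1a: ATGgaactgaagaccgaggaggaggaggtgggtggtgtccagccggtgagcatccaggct
ASIC1b: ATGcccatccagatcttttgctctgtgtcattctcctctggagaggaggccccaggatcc
ASIC2a: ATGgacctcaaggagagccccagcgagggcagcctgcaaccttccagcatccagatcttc
ASIC2b: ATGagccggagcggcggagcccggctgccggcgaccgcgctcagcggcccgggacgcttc

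ASIC1a carries 558 coding bases of its own and ASIC1b 657, after which both use the same 9 coding exons of 1020 bases. ASIC2a carries 555 bases of its own and ASIC2b 708, followed by 9 shared coding exons of 981 bases. The joins follow, with the last 30 bases of the isoform's own part in lower case and the first 30 shared bases in capitals. The shared exon that begins there is chr15:99694694-99694844 in *Asic1* and chr11:80971464-80971614 in *Asic2*.
ASIC1a: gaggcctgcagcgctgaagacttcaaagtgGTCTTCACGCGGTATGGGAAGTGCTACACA
ASIC1b: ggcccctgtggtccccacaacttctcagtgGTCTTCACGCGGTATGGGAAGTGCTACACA
ASIC2a: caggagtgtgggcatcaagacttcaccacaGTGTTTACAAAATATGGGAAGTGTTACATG
ASIC2b: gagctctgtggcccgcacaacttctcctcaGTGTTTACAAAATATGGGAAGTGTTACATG

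A read from the shared coding part cannot be told between ASIC1a and ASIC1b. The transcripts also differ outside the coding part, since that of ASIC1a ends at 99701128 and that of ASIC1b at 99699138 on chromosome 15. Between genes the sequences differ more: the first 7 of the shared exons have the same lengths in *Asic1* and *Asic2* (813 bases) and are identical at 75.3% of positions, and the longest identical run between any transcripts of 2 members is 32 bases, between *Asic1* and *Asic2*. With paired reads of 100 bases, all 80 expected counts of the members (5 genes in 16 libraries) were whole numbers within 0.005, so no sign was seen of reads divided between genes.

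**Figure D1:**
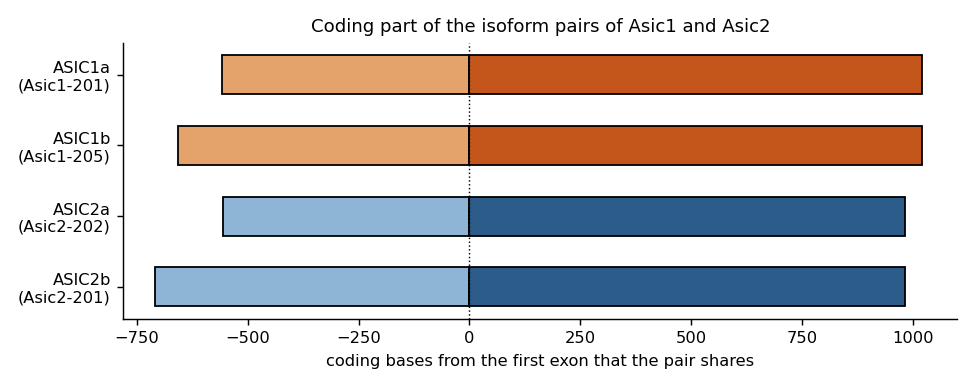
Coding part of the 4 isoforms in bases, aligned at the first exon that each pair shares (0 on the horizontal axis). Light bars are the bases that only 1 isoform has (558 in ASIC1a, 657 in ASIC1b, 555 in ASIC2a, 708 in ASIC2b) and dark bars the shared bases (1020 in *Asic1*, 981 in *Asic2*).

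The libraries held 34888522 to 42326259 expected counts (median 35750448), and ASIC1a-/- ZT13 replicate 3 had the most. The 10 hypothalamic marker genes, among them *Pmch*, *Hcrt*, *Agrp* and *Oxt*, were all over the filter and summed to 1024 to 1473 CPM (counts scaled to a common library total) per library. Meningeal markers (8 of 8 tested, among them *Dcn*, *Lum* and *Col1a2*) summed to 44.3 to 171 CPM in ASIC1a-/- and 45.8 to 69.4 CPM in WT libraries at ZT13, and to 64.7 to 356 against 51.8 to 70.9 CPM at ZT1. The high values were those of ASIC1a-/- ZT1 replicate 4 and ASIC1a-/- ZT13 replicate 2. No tested gene of the 13 marker lists passed between genotypes at either time. The pituitary list (3 of 6 genes tested) summed to 39.5 to 90.9 CPM, highest in WT ZT13 replicate 1. It includes *Prl*, which the paper reports as lower in ASIC1a-/- than in WT hypothalamus at ZT13, by RNA-seq and RT-qPCR. Since no tested gene of this list passed here, that difference of *Prl* has no call in the test used here. The paper's RNA-seq list rests on a different p threshold. Of 6 markers of peripheral sensory neurons, where ASIC1b and ASIC3 are known, 4 were over the filter and *Mrgprd* was at 0 in every library. The list summed to 17.5 to 21.8 CPM.

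Per unit of transcript length, *Asic1* was the highest member and *Asic2* the next, with *Asic4* far lower and *Asic3* and *Asic5* near 0. On the scale of TPM (reads divided by transcript length, scaled to a common library total), *Asic1* averaged 72.8 ± 8.22, *Asic2* 47.3 ± 1.60, *Asic4* 7.24 ± 0.69 and *Asic3* 0.42 ± 0.24 TPM (SD, n = 16). The *Asic1* mean joins 79.8 TPM in ASIC1a-/- and 65.8 TPM in WT libraries (n = 8 each). The order *Asic1*, *Asic2*, *Asic4*, *Asic3*, *Asic5* held in 16 of 16 libraries. In ASIC1a-/- libraries the first place of *Asic1* depends on the shorter length that RSEM assigned to it there, given below. In reads, not divided by length, *Asic1* and *Asic2* averaged 69.2 and 66.5 CPM in ASIC1a-/- libraries, against 102 and 67.6 CPM in WT libraries. No neighbours in that order overlapped in level: the lowest *Asic1* value was 60.8 TPM against a highest *Asic2* value of 49.6 TPM, the lowest *Asic2* value was 44.1 TPM against a highest *Asic4* value of 8.49 TPM, and the lowest *Asic4* value was 5.77 TPM against a highest *Asic3* value of 0.98 TPM. *Asic3* and *Asic5* were also apart (lowest 0.06 against highest 0.04 TPM), but on a handful of reads. Of the 15808 tested genes, 83.9% had a lower mean TPM than *Asic1*, 74.9% a lower one than *Asic2* and 30.1% a lower one than *Asic4*.

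*Asic1* reads were fewer, but not absent, in ASIC1a-/- hypothalamus, and no other tested member of the family was called between genotypes. At ZT13, *Asic1* (ENSMUSG00000023017, chromosome 15, 99670368 to 99701130, + strand) was at 71.2, 69.9, 71.9 and 71.0 CPM in the ASIC1a-/- libraries, against 98.0, 97.1, 99.4 and 102 CPM in the WT libraries. At ZT1 it was at 70.03, 64.9, 68.9 and 65.9 CPM in the ASIC1a-/- libraries, against 104, 104, 106 and 101 CPM in the WT libraries. The genotypes did not overlap at either time, and all 8 ASIC1a-/- libraries were under all 8 WT libraries.

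With edgeR's quasi-likelihood test, the *Asic1* count fell by 28.4% at ZT13 (log2 fold change -0.48, SE 0.028, 95% interval of the change -31.3% to -25.4%, adjusted p = 1.3e-08). It fell by 35.1% at ZT1 (log2 fold change -0.62, SE 0.028, interval -37.7% to -32.4%, adjusted p = 3.5e-10). Averaged over both times the log2 fold change was -0.55 (SE 0.020, adjusted p = 6.7e-12), the smallest p of all genes. Without the pair of libraries high in meningeal markers it was -0.47 at ZT13, -0.62 at ZT1 and -0.54 over both times. The fall is one of reads over the whole gene. Reads also follow the length of the transcripts, given below, so fewer reads need not mean fewer transcripts. In whole tissue, fewer cells of a type and less RNA per cell cannot be told apart, and cell numbers were not tested. The 6 neuron markers summed to 4004 to 4342 CPM in ASIC1a-/- and 4036 to 4280 CPM in WT libraries at ZT13. At ZT1 they summed to 4091 to 4407 against 4192 to 4370 CPM.

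*Asic1* was 1 of 3 members tested and the only one called between genotypes, in a background of few calls: 0.101% of the 15808 tested genes were called at ZT13, 0.0127% at ZT1 and 0.0633% over both times. The other tested members, *Asic2* and *Asic4*, were not among them.

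**Figure D2:**
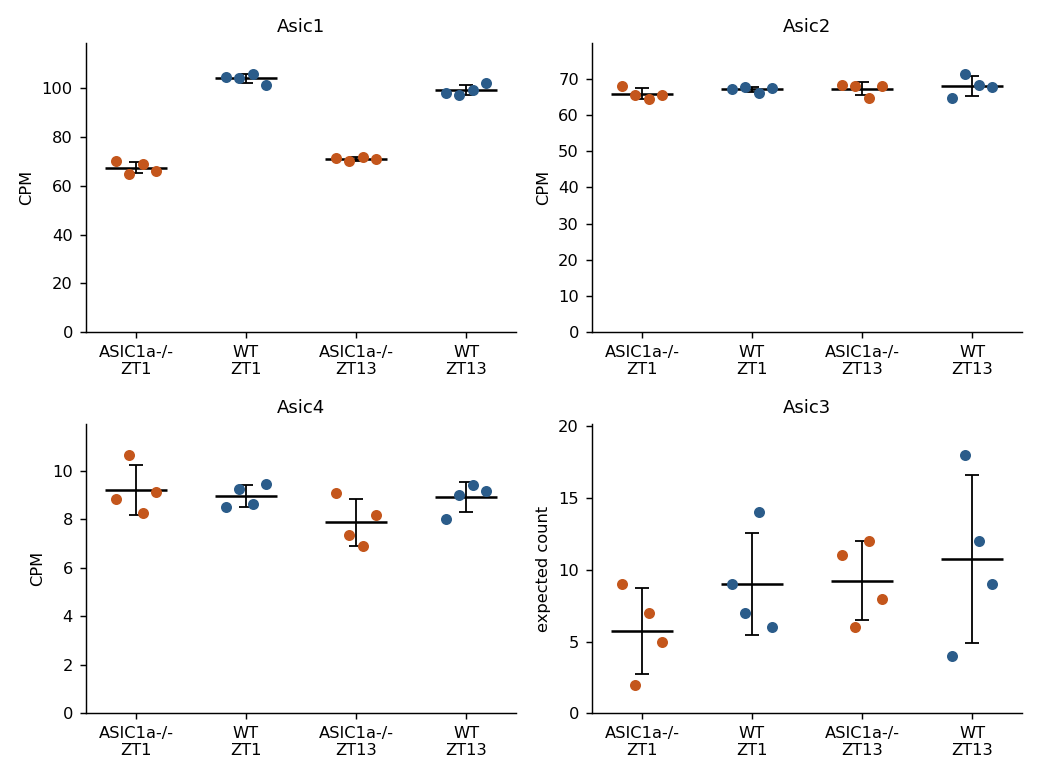
Reads of *Asic1*, *Asic2* and *Asic4* in CPM and of *Asic3* in expected counts, for each library (dots, 4 a group), with the group mean (line) and SD (bars), ASIC1a-/- in orange and WT in blue. The *Asic1* libraries of ASIC1a-/- mice lie between 64.9 and 71.9 CPM and those of WT mice between 97.1 and 106 CPM, whereas the groups overlap for the other 3 genes.

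RSEM assigned the *Asic1* reads of ASIC1a-/- mice to shorter annotated transcripts, as shown by the mean transcript length it gives each gene, weighted by the abundance of its transcripts. At ZT13 this length was 1829, 1812, 1816 and 1821 bp in ASIC1a-/- libraries, against 3078, 3173, 2980 and 3009 bp in WT libraries. At ZT1 it was 1836, 1791, 1766 and 1862 bp in ASIC1a-/- libraries, against 3382, 3249, 3197 and 3026 bp in WT libraries. ASIC1a-/- libraries were thus well under WT libraries at both times, with little spread among them at ZT13 (SD 7.11 bp, n = 4).

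The difference of the means was -1241 bp at ZT13 and -1400 bp at ZT1. In an exact two-sided permutation test of libraries it had p = 0.0286 at each time, the smallest that 4 against 4 libraries allow, and with libraries permuted within both times p = 0.000408, again the smallest possible (3 tests, Benjamini-Hochberg adjusted p = 0.0286, 0.0286 and 0.00122). Across the 13293 genes with a length in all libraries, limma called *Asic1* first by p at both times, with a log2 length ratio of -0.75 (SE 0.029, adjusted p = 2.7e-08) at ZT13 and of -0.82 (SE 0.029, adjusted p = 8.2e-09) at ZT1. It called 0.015% of genes at ZT13, 0.015% at ZT1 and 0.0226% over both times, and *Asic2* and *Asic4* were not among them.

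Of the annotated *Asic1* transcripts, 1 encodes ASIC1a (526 residues, 4114 bp in 12 exons) and 1 encodes ASIC1b (559 residues, 1818 bp in 10 exons). The other 4 are noncoding, 3 with a retained intron (638, 715 and 929 bp) and 1 processed transcript (2788 bp). The mean length in ASIC1a-/- mice, 1819 ± 7.11 bp at ZT13 and 1814 ± 43.4 bp at ZT1 (SD, n = 4), was near that of the ASIC1b transcript, but a mixture of transcripts can give the same mean and gene values cannot tell them apart. With any mixture of the annotated transcripts, the ASIC1a transcript could make up at most 33.8% to 34.3% of *Asic1* transcripts in the ASIC1a-/- libraries at ZT13 and at most 32.4% to 35.2% at ZT1. In WT libraries it had to make up at least 14.5% to 29.0% and at most 67.4% to 72.9% at ZT13, and at least 17.9% to 44.8% and at most 68.7% to 78.9% at ZT1.

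The limits of the genotypes overlap except in WT ZT1 replicate 1, whose minimum of 44.8% lies above the highest ASIC1a-/- maximum of 35.2%. For the other WT libraries the lengths do not by themselves show a larger share of the ASIC1a transcript than in ASIC1a-/- mice. In ASIC1a-/- mice they allow a share of 0. The paper reports, from RT-qPCR, that *Asic1a* mRNA was absent in ASIC1a-/- animals. RSEM assigns reads only to annotated transcripts, and an RNA of the deleted allele that is not annotated would be counted under one of these. Whether such an RNA exists was not tested.

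Because TPM divides by this length, *Asic1* had the opposite direction on that scale. It was at 82.5, 83.0, 84.0 and 81.1 TPM in ASIC1a-/- libraries at ZT13, against 64.1, 60.8, 67.9 and 71.1 TPM in WT libraries. At ZT1 it was at 79.0, 73.1, 82.8 and 72.8 TPM in ASIC1a-/- libraries, against 61.8, 65.0, 67.6 and 68.2 TPM in WT libraries. The genotypes did not overlap on this scale either, with ASIC1a-/- above WT. The limma log2 difference of TPM + 1 was 0.32 at ZT13 (adjusted p = 0.0346) and 0.22 at ZT1 (adjusted p = 0.646, not called). Fewer reads and more transcripts per length are therefore 2 readings of the same libraries, and which of them describes *Asic1* depends on the length assigned to it.

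**Figure D3:**
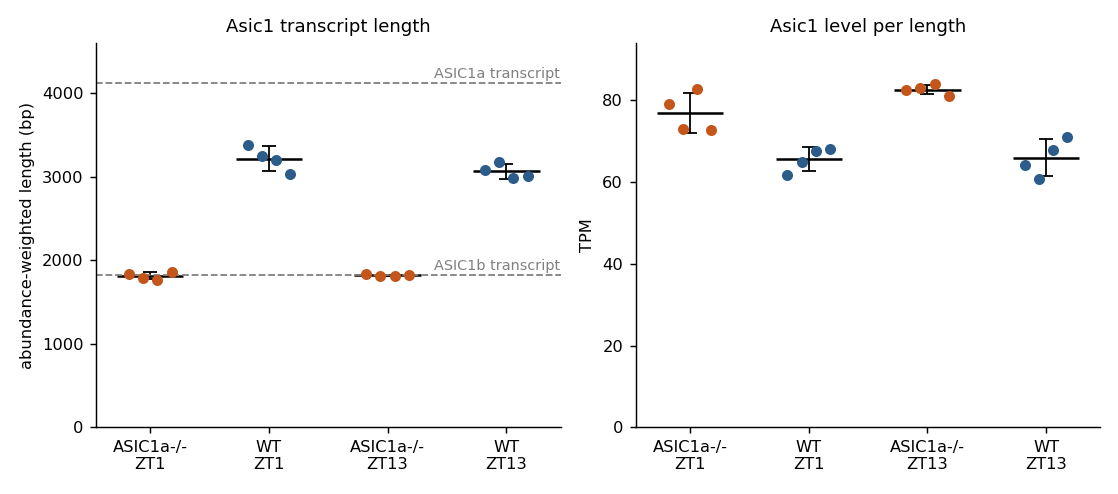
Left, the abundance-weighted length in bp of *Asic1* transcripts, and right, the *Asic1* level in TPM, for each library (dots, 4 a group), with the group mean (line) and SD (bars); dashed lines mark the lengths of the ASIC1a transcript (4114 bp) and the ASIC1b transcript (1818 bp). ASIC1a-/- libraries lie between 1766 and 1862 bp and WT libraries between 2980 and 3382 bp, and in TPM ASIC1a-/- libraries lie above WT libraries.

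A length that differs with genotype was rare and in each case lay on the chromosome of *Asic1*. *Faim2*, which encodes an inhibitor of Fas-mediated cell death and lies 0.142 Mb from *Asic1* (gap between the genes), had 2455 ± 32.8 bp in ASIC1a-/- mice at ZT13, against 2599 ± 23.4 bp in WT mice (SD, n = 4; limma adjusted p = 0.0140). *Krt1*, a keratin gene 2.14 Mb away, passed only over both times (log2 length ratio 0.21, adjusted p = 0.0229), with 2383 ± 88.4 bp in ASIC1a-/- mice at ZT13, against 2076 ± 99.7 bp in WT mice. Neither was called on its counts.

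*Asic2*, the second most abundant member and the usual partner of ASIC1a in brain channels, was at the same read level in both genotypes within a few percent. *Asic2* (ENSMUSG00000020704, chromosome 11, 80880169 to 81968457, - strand) was at 68.2, 68.0, 64.6 and 68.1 CPM in ASIC1a-/- libraries at ZT13, against 64.7, 71.4, 68.3 and 67.8 CPM in WT libraries. At ZT1 it was at 68.1, 65.4, 64.4 and 65.5 CPM in ASIC1a-/- libraries, against 67.0, 67.7, 66.2 and 67.4 CPM in WT libraries. The groups overlapped at both times, and the SD over all 16 libraries was 1.83 CPM around a mean of 67.0 CPM.

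The edgeR log2 fold change of *Asic2* was -0.02 at ZT13 (SE 0.032, adjusted p = 1.00), -0.03 at ZT1 (SE 0.032, adjusted p = 0.884) and -0.02 over both times (SE 0.022, adjusted p = 0.880). Over both times the 95% interval of the change ran from -4.70% to 1.73%, so a rise of *Asic2* reads above that upper end lies outside it. For comparison, the *Asic1* mean fell by 28.2 CPM at ZT13 and by 36.5 CPM at ZT1.

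The *Asic2* length separates its isoforms, because the gene has only 2 annotated transcripts, of 3436 bp (ASIC2b, 563 residues) and 2700 bp (ASIC2a, 512 residues), and the mean length then gives their shares exactly. ASIC2a was the main isoform, at 35.95 ± 1.69 TPM against 11.4 ± 0.90 TPM for ASIC2b (SD, n = 16). The share of the ASIC2b transcript was 23.7%, 21.4%, 22.5% and 20.7% in ASIC1a-/- libraries at ZT13, against 25.1%, 24.3%, 24.7% and 25.7% in WT libraries. At ZT1 it was 25.8%, 25.4%, 23.4% and 23.3% in ASIC1a-/- libraries, against 23.0%, 22.6%, 28.6% and 25.0% in WT libraries.

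This share averaged 22.1% ± 1.29 in ASIC1a-/- and 25.0% ± 0.63 in WT mice at ZT13 (SD, n = 4). The libraries of the genotypes were apart at ZT13 and overlapped at ZT1. How many of all genes have lengths that separate in this way was not counted, so the separation is a description only. The difference at ZT13 did not pass: the log2 length ratio was -0.01 (SE 0.0052, 95% interval -0.0218 to 0.00072, limma adjusted p = 1.00), in a comparison that called 0.015% of genes. Its unadjusted limma p was 0.064, rank 806 by p among 13293 genes. At ZT13 ASIC2b averaged 10.6 ± 0.65 TPM in ASIC1a-/- mice, against 11.99 ± 0.54 TPM in WT mice, and ASIC2a 37.5 ± 1.34 against 36.1 ± 1.52 TPM. In TPM the libraries of the genotypes overlapped for both isoforms.

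**Figure D4:**
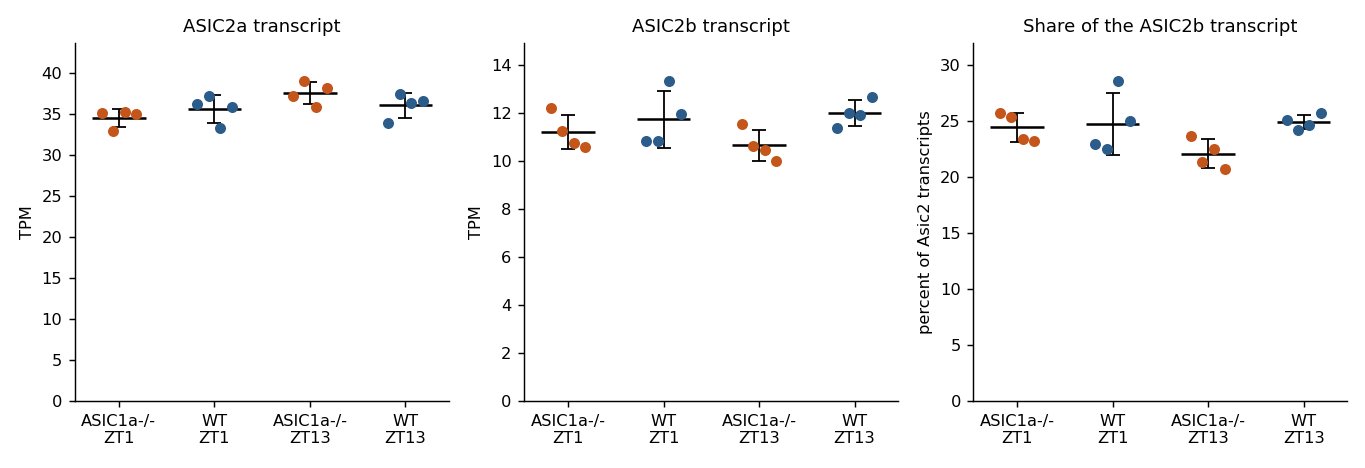
TPM of the ASIC2a transcript (left) and the ASIC2b transcript (middle), and the share of ASIC2b among *Asic2* transcripts in percent (right), for each library (dots, 4 a group), with the group mean (line) and SD (bars). The ASIC2b share lies between 20.7% and 23.7% in ASIC1a-/- and between 24.3% and 25.7% in WT libraries at ZT13, a difference that was not called, and the genotypes overlap at ZT1.

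*Asic4* (ENSMUSG00000033007, chromosome 1, 75450436 to 75474343, + strand), whose product is known to lower the surface level of other ASICs when expressed with them, was low and more variable. It was at 9.07, 7.35, 6.88 and 8.18 CPM in ASIC1a-/- libraries at ZT13, against 8.00, 9.01, 9.41 and 9.18 CPM in WT libraries. At ZT1 it was at 8.81, 10.6, 8.26 and 9.10 CPM in ASIC1a-/- libraries, against 8.49, 9.22, 8.63 and 9.47 CPM in WT libraries. The groups overlapped at both times, with the lowest values in ASIC1a-/- mice at ZT13 and the highest in 1 ASIC1a-/- mouse at ZT1.

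The log2 fold change of *Asic4* between genotypes was -0.18 at ZT13 (SE 0.091, 95% interval of the change -22.7% to 0.89%, edgeR adjusted p = 1.00) and 0.04 at ZT1 (SE 0.091, edgeR adjusted p = 0.950). With a library left out it ran from -0.25 to -0.12 at ZT13, nearest to 0 without ASIC1a-/- replicate 3, and from -0.04 to 0.09 at ZT1, where it turned negative without ASIC1a-/- replicate 2. Over both times it was -0.07 (SE 0.064), with a 95% interval of the change from -13.2% to 4.66%. *Asic4* averaged 314 counts per library, and its interval was wider than that of *Asic2*. Nearly all *Asic4* RNA was the longer-coding transcript: the other coding transcript, of 9 instead of 10 exons and 520 instead of 539 residues, made up 0% to 5.76% of the transcripts in the 16 libraries. Its share averaged 2.93% ± 2.00 in ASIC1a-/- mice at ZT13, against 2.93% ± 2.70 in WT mice (SD, n = 4), and no length call was made for *Asic4*.

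*Asic3* and *Asic5* were at the edge of detection and fell under the filter of 1 CPM in at least 1 library. *Asic3* (ENSMUSG00000038276, chromosome 5, 24413392 to 24417835, + strand) had 11, 6, 12 and 8 counts in ASIC1a-/- libraries at ZT13, against 4, 18, 12 and 9 in WT libraries. At ZT1 it had 9, 2, 7 and 5 counts in ASIC1a-/- libraries, against 9, 7, 14 and 6 in WT libraries. The groups overlapped and the sums were 60 counts in the 8 ASIC1a-/- and 79 counts in the 8 WT libraries. In an edgeR fit with no filter its log2 fold change over both times was -0.48 (SE 0.316, adjusted p = 0.909), with an interval of the change from -54.0% to 12.1%.

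*Asic5* (ENSMUSG00000028008, chromosome 3, 81982290 to 82021233, + strand) had 1 count in 3 libraries (1 ASIC1a-/- library at ZT13 and 1 WT library at each time) and 0 in the other 13. A count of 0 allows up to 3 counts, which is 0.0709 to 0.0860 CPM in these libraries (counting error only). All groups were under this limit, and no fold change is given.

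**Figure D5:**
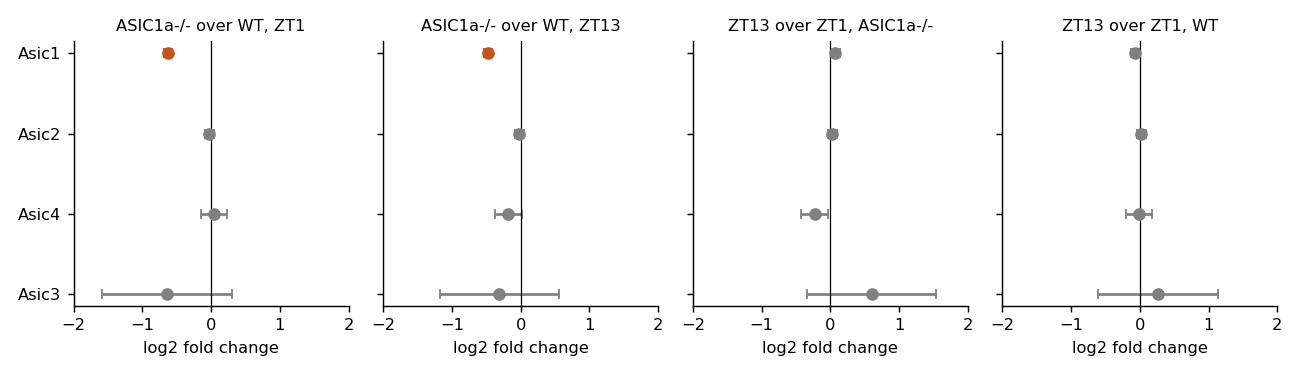
Log2 fold change (dots) with its 95% interval (bars) of *Asic1*, *Asic2*, *Asic4* and *Asic3* between ASIC1a-/- and WT mice at each time and between ZT13 and ZT1 in each genotype; orange marks an adjusted p under 0.05. Only *Asic1* between genotypes is orange (-0.62 at ZT1 and -0.48 at ZT13), and the interval widens with falling read number to *Asic3*.

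Added over *Asic2* to *Asic5*, reads came to 75.3 ± 2.54 CPM in ASIC1a-/- mice at ZT13, against 77.3 ± 3.34 CPM in WT mice, and to 75.2 ± 1.88 against 76.3 ± 0.94 CPM at ZT1 (SD, n = 4). The sum is a description and follows *Asic2*, which supplies most of it.

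Time of day moved none of the 3 tested members past the threshold, although it moved many genes: 11.3% of the tested genes were called between ZT13 and ZT1 in ASIC1a-/- mice and 13.3% in WT mice. The paper reports a daily rhythm of *Asic1a* mRNA, by RT-qPCR, and of ASIC1a protein in WT hypothalamus. The low time of that mRNA was not sampled here, and reads of the gene add ASIC1a to the other transcripts. *Asic1* had a log2 fold change of 0.07 between ZT13 and ZT1 in ASIC1a-/- mice (SE 0.029, edgeR adjusted p = 0.102) and of -0.07 in WT mice (SE 0.028, edgeR adjusted p = 0.124). The directions were opposite in reads, and the libraries of ZT13 and ZT1 overlapped in both genotypes. With transcript length as an offset, *Asic1* had 0.07 in ASIC1a-/- mice and 0.0008 in WT mice, so that the directions were no longer opposite, and the interaction was 0.07, against 0.14 in reads. In reads, the test of the difference itself, the interaction of genotype and time, gave 0.14 on the log2 scale (SE 0.040, edgeR adjusted p = 1.00, rank 33 by p among 15808 genes) and was not called, in a comparison that called 0.019% of genes. *Asic4* had -0.23 between ZT13 and ZT1 in ASIC1a-/- mice (SE 0.091, edgeR adjusted p = 0.117) and -0.01 in WT mice, with an interaction that did not pass (-0.22, SE 0.129, edgeR adjusted p = 1.00). *Asic2* had 0.03 between ZT13 and ZT1 in ASIC1a-/- mice and 0.02 in WT mice on the log2 scale (edgeR adjusted p = 0.597 and 0.731). DESeq2 called 0 of the 3 members in these comparisons, and by edgeR the unadjusted p was under 0.05 for *Asic1* in all 3 and for *Asic4* in ASIC1a-/- mice.

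The RNA of proteins that bind or modify ASICs gave no call between genotypes. None of 20 genes of partners and regulators was called at ZT13, at ZT1 or over both times (edgeR, background 0.101%, 0.0127% and 0.0633%), and DESeq2 called 0 as well. The unadjusted p was under 0.05 for 0 at ZT13, 3 at ZT1 and 3 over both times. Their median log2 fold change over both times was -0.00091, against 7.2e-05 over all genes. Over both times, the smallest p between genotypes in this list belonged to *Stom*, *Akap5* and *Nedd4l*, each with an edgeR adjusted p of 0.73. *Stom* encodes a membrane protein that modulates ASIC currents (log2 fold change 0.18, SE 0.08). *Akap5* encodes an anchor for kinases and calcineurin (0.06, SE 0.03), and *Nedd4l* a ubiquitin ligase for sodium channels of the superfamily (-0.04, SE 0.02).

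Between times, 4 of the 20 rose and 1 fell at ZT13 in ASIC1a-/- mice, and 2 rose in WT mice. *Actn1*, the cytoskeletal linker alpha-actinin, rose by 0.24 on the log2 scale in ASIC1a-/- mice (SE 0.06, edgeR adjusted p = 0.010) and by 0.19 in WT mice (SE 0.06, adjusted p = 0.028). *Nedd4l* rose by 0.15 in ASIC1a-/- (adjusted p = 0.0040) and by 0.11 in WT mice (adjusted p = 0.022). In ASIC1a-/- mice *Slc9a3r1*, a PDZ scaffold that binds ASIC3 (0.17, adjusted p = 0.014), and *Ripk1*, a kinase of necroptosis that ASIC1a recruits in ischemic neurons (0.22, adjusted p = 0.040, not called by DESeq2 with 0.079), also rose, and *Prkca*, a protein kinase C that reaches ASICs through the scaffold PICK1, fell by 0.15 (adjusted p = 0.022). These 3 did not pass in WT mice (0.09, 0.13 and -0.01), and the interaction was not called for any of them (adjusted p = 1.00 each). The shares of 5 in 20 in ASIC1a-/- and 2 in 20 in WT mice stand beside backgrounds of 11.3% and 13.3%, and DESeq2 called 4 in each genotype.

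Of the relatives that form the epithelial sodium channel, only *Scnn1a* was tested, with -0.0004 over both times (SE 0.10), and *Scnn1b* and *Scnn1g* fell under the filter. The 3 precursors of peptides that modulate ASIC gating, *Pdyn*, *Npff* and *Npvf*, were not called by edgeR in any comparison. DESeq2 called 1 of them between times in ASIC1a-/- mice, and the unadjusted p between genotypes was under 0.05 for 1, *Npvf*, at ZT1. *Npvf*, the precursor of RFamide-related peptides, averaged 11.4 ± 0.65 CPM in ASIC1a-/- mice at ZT13, against 9.68 ± 1.51 CPM in WT mice, and 8.79 ± 0.22 against 11.2 ± 2.23 CPM at ZT1 (SD, n = 4), and its interaction of 0.59 (SE 0.17) did not pass (edgeR adjusted p = 1.00). Of 8 tested proton-gated or pH-sensitive channels and receptors of other families 0 were called between genotypes by edgeR or DESeq2, with an unadjusted p under 0.05 for 1 (over both times). Between times, *Kcnk1*, a potassium channel whose selectivity changes in acid, rose at ZT13 by 0.18 on the log2 scale in ASIC1a-/- mice and by 0.14 in WT mice (edgeR adjusted p = 0.0093 and 0.031, DESeq2 adjusted p = 0.0014 and 0.017). *Tmem206*, the proton-activated chloride channel, rose by 0.19 in ASIC1a-/- mice (edgeR adjusted p = 0.040, DESeq2 adjusted p = 0.041) and had 0.11 in WT mice, with no call of the interaction. These calls stand beside backgrounds of 11.3% of all genes in ASIC1a-/- mice and 13.3% in WT mice.

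The genes most like each member across the 16 libraries were listed by Pearson's r of log2 CPM, as a description. *Krt90*, a keratin gene on the same chromosome, was most like *Asic1* (r = 0.92), followed by *Rapgef2* (0.81) and *Ptprm* (0.78). *Asic1* has 2 separate levels, one for each genotype, and with group means removed these values were 0.36, 0.22 and 0.41. *Asic2* was most like *Gm3095*, *Gm20517* and *Zfp566* (r = 0.78, 0.76 and 0.74) and *Asic4* most like *Snrpd1*, *Cstf2t* and *Lsm6* (0.81, 0.79 and 0.78). Among the members themselves r was low: 0.29 between *Asic1* and *Asic2*, 0.17 between *Asic1* and *Asic4* and 0.25 between *Asic2* and *Asic4*. With group means removed these were -0.05, -0.37 and 0.47. All values of a library share its depth and its dissection.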

How the data were processed

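Before deposit the authors cut adapters with cutadapt 1.8, dropped ribosomal reads, aligned to GRCm38 with STAR 2.5.3a and ran RSEM 1.2.31 (the submitters' notes also list mm9 and HTSeq 0.9.1, whose counts were not used here). The paper and the labels name different RNA and library kits, and strandedness is not given in the sources used here. The deposited expected counts are RSEM estimates, not normalized. The deposited TPM and transcript lengths are also RSEM's. Lengths of 99.8% of genes with 1 transcript equalled GENCODE M21.

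Expected counts were rounded and tested on 15808 genes over 1 CPM in at least 1 library (edgeR 4.0.16, TMM, quasi-likelihood, 4 group means) in 6 comparisons, with Benjamini-Hochberg adjustment over all genes and a threshold of 0.05. Log2 lengths were tested with limma 3.58.1. R was 4.3.3, Python 3.11.15 and matplotlib 3.10.9. Scripts were tested on simulated data. DESeq2 1.42.0 was an alternative. Members and lists were chosen with earlier results of these data known. From the lists, genes called in any comparison and the 3 with the smallest p between genotypes could be named; further marker genes illustrate their lists. *Faim2* and *Krt1* were named after their values were seen. Within groups, libraries differed by more than counting error in all 24 pairs, so none is a copy. A gene of the list of pH-sensitive channels and receptors is not reported here.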

Additional observations from a re-analysis of the deposited data

Results flagged for a closer look

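In 1 of 52 groups of 4 values examined for *Asic1* to *Asic4*, a library lay far from the other 3 by Dixon's ratio, a test that flags about 1 in 20 groups by chance. *Asic2* was at 64.6 CPM in ASIC1a-/- ZT13 replicate 3, against 68.0 to 68.2 CPM in the other libraries of the group (ratio 0.967). That library also had the most expected counts (42326259). Without it, the log2 fold change of *Asic2* between genotypes at ZT13 was 0.002 (adjusted p = 1.00), against -0.02 with it.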

How the results depend on the processing

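The read level of *Asic1* turned direction wherever transcript length entered. Its log2 fold change between genotypes became 0.27 at ZT13, 0.20 at ZT1 and 0.23 over both times with length as an offset in edgeR, 0.32, 0.22 and 0.27 with log2(TPM + 1), and 0.33, 0.23 and 0.28 with log2(TPM + 0.1). All 3 scales divide by the shorter length in ASIC1a-/- mice. On these 3 scales 0 members were called at ZT1 (limma and edgeR), with log2(TPM + 0.1) 0 at ZT13, and elsewhere *Asic1* was called. Under the remaining alternatives (other filters, size factors, DESeq2, limma-voom, unrounded counts, only the 8 libraries compared, the pair of libraries high in meningeal markers left out, and each library left out in turn) *Asic1* stayed called, with -0.49 to -0.47 at ZT13 and -0.64 to -0.61 at ZT1 when a library was left out. Of 344 values for *Asic2* and *Asic4* under an alternative 0 were called by edgeR, limma or DESeq2 (lowest adjusted p = 0.0545). The length call of *Asic1* held under all 19 alternatives. DESeq2 called 30 genes of the whole table between genotypes at ZT13, 7 at ZT1 and 23 over both times, where edgeR called 16, 2 and 10.

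A fit blocked on replicate number gave *Asic1* -0.48 at ZT13, -0.62 at ZT1 and -0.55 over both times, and no call of a member changed. The numbers did not pair the libraries: same-numbered libraries correlated at -0.30 to 0.25 over 24 pairs, and 6 of 16 libraries correlated best with their own number.

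*Asic3* and *Asic5*, with 18 or fewer counts in every library, were fitted only without the filter, and each group held 4 mice.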
